A study of Ovis aries with 32 samples.

Results

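Gene expression in the untreated middle cerebral artery (MCA) of the newborn lamb was set against that of the untreated near-term fetus, so that the comparison spans birth. It takes 4 arrays from each of these groups, 8 of the 32 samples of the series, and they were chosen by their sample labels and not by any measured value. In the study, MCA segments of sheep at 4 ages were rested in Krebs buffer for 30 minutes and were then left untreated or exposed for 30 minutes to 10 µM phenylephrine (PHE), an agonist of the alpha1-adrenergic receptor. Neither group described here received PHE, and whether its segments stayed in the bath for those minutes is not given in the sources used here. According to the sample labels, the newborn lambs were 12 hours old and the near-term fetuses at 146 days of gestation, whereas the methods give 5 days and 140 days. The premature fetuses, set beside them further below, were at 96 days of gestation by both sources. The adult sheep, also used below, were 2 years old by the labels and 18 to 24 months by the methods. Each segment was a whole piece of arterial wall from which fat and connective tissue had been cleaned, with all of its cell types, so that fewer cells of a type and less RNA per cell cannot be told apart. The methods give 4 animals for each experiment, and p-values measure the spread between these samples.

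The wall of a cerebral artery is mostly smooth muscle, which contracts when calcium leads to phosphorylation of myosin and relaxes under nitric oxide and the cyclic nucleotides. An inner endothelium and an outer coat of matrix, fibroblasts and nerve endings complete it, and the leptomeninges lie against its outer face. Around birth the lung takes over gas exchange, arterial oxygen rises, cortisol surges, and the supply of growth factors and oxygen that the placenta provided ends.

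The arrays hold 15744 spots each, with 536 control spots and 15008 different probes. Intensities were divided by the 75th percentile of their array and put on the log2 scale, so that a signal of 0 is the 75th percentile of that array. Where several probes share a gene name the brightest on average was used, giving 14313 genes or unnamed probes. On the newborn arrays the 75th percentile intensity was 864.0, 755.5, 760.4 and 645.2, and 63.7% to 68.9% of probes were well above background. It was 599.3, 1368.1, 391.0 and 124.3 on near-term replicates 1 to 4, with 61.6%, 88.4%, 59.6% and 71.4% of probes well above background. Near-term replicate 4 was dim, its 75th percentile being 1.08 times its background against 2.77 to 9.16 times on the other near-term arrays and 3.86 to 5.37 times on the newborn arrays. The newborn arrays correlated with each other at r = 0.969 to 0.984 across genes, the near-term arrays at 0.873 to 0.962, and arrays of different groups at 0.78 to 0.888. The median SD of a gene was 0.22 log2 in the newborn and 0.52 in the near-term group, and with so few arrays no value is known more closely than this spread allows. Newborn arrays lay on a single slide and were scanned on 1 day, while the near-term arrays lay on 3 other slides scanned on another day, so that an effect of age cannot be told apart from one of scan day or slide.

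The test was limma's, two-sided, with p adjusted by the method of Benjamini and Hochberg, and a gene was called at an adjusted p below 0.05 and a fold change of at least 1.5. Testing took in the 9301 genes whose signal stood well above background throughout at least 1 group of 4 arrays, and 3513 were called (37.8%). In the newborn artery 1720 genes rose (18.5%) and 1793 fell (19.3%), with a median log2 difference of 0.00 over all genes tested. Leaving out the dim near-term replicate 4 gave 4189 calls among 9343 genes (44.8%), 2077 higher and 2112 lower, and 3315 genes were called in the same direction both ways. With the slide as a random block (within-slide correlation 0.408), 959 genes were called (10.3%), 502 higher and 457 lower. The 7286 genes well above background in both groups held 1008 that rose and 1564 that fell, whereas the 1725 that passed through the newborn arrays alone held 712 and 6, and the 290 that passed through the near-term arrays alone held 0 and 223. In 1813 genes all newborn values lay above all near-term values and in 1906 all lay below, so that a lack of overlap is common here. Genes that passed through 1 group had to be bright there, and their direction follows in large part from that.

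The split by direction moved with the background correction. Under normexp correction 855 genes were higher and 2471 lower, so that 25.7% of the calls were higher against 49.0% under the array software's own subtraction, and among genes well above background on all 8 arrays it was 39.2%. The median of all genes shifted by -0.37 log2 under normexp, 0.14 under quantile normalization and 0.16 when the 75th percentile was taken over probes well above background on all 8 arrays. Brightness was examined after the plot of group means had been seen. The brightest 1861 of the genes tested held 163 that rose and 537 that fell (median -0.33), and the dimmest 1860 held 409 and 323 (median 0.24). Quantile normalization gave 288 higher and 305 lower among the brightest, and normexp gave 0 higher and 838 lower among the dimmest. Normexp values are given below for most of the genes described that are not called under it.

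**Figure D1:**
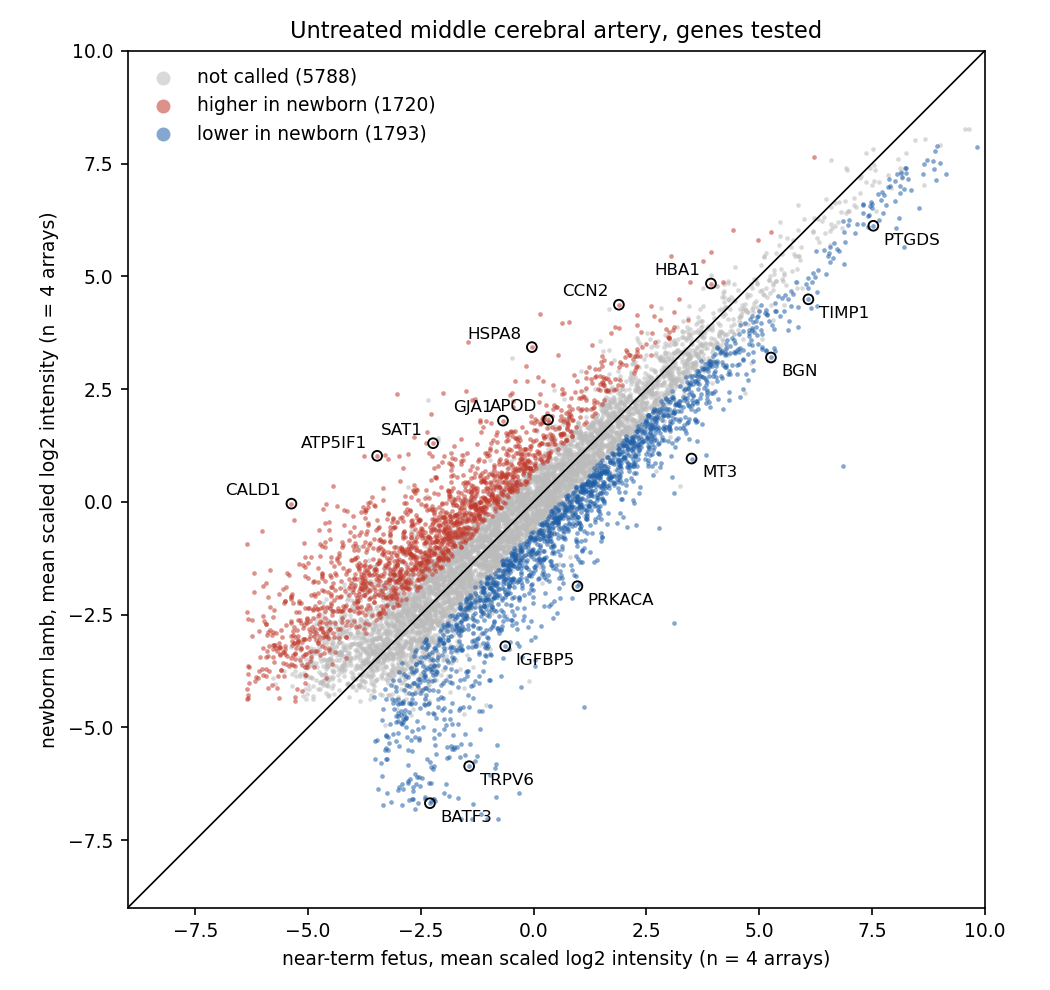
Mean log2 signal of each gene tested in the untreated near-term fetus (horizontal) and the untreated newborn lamb (vertical), 4 arrays each, with the 1720 genes called higher and the 1793 called lower in the newborn coloured and 16 genes circled and named. Most of the brightest genes, PTGDS, TIMP1 and BGN among them, lie below the diagonal, and CALD1 and ATP5IF1 stand far above it.

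In the plot of group means, genes spread around the diagonal at every level, and the coloured genes lie on both sides of it. Symbols were available for 1745 of the genes tested, of which 677 were called (38.8%), 287 higher and 390 lower. Most of these symbols exist only because the study lists the gene as altered by PHE at some age, which is not independent evidence about birth, and 145 of the 364 genes named otherwise were called. Of 248 tested genes on 24 lists of pathways and cell types, 89 were called (35.9%), a share near that of all genes, and 25 with the slide as a random block. Differences below are newborn minus near-term on the log2 scale with their SE, 4 arrays a group, and adjusted p is limma's over all genes tested. Where a gene was not well above background on every array, the size of its difference rests in part on signals near background. List members beyond the 3 largest called differences in each direction are given by name or value after their values were seen.

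Of 24 listed genes of smooth muscle contraction 6 were on the array, and the list was not tested as a group. Of these 6 members, CALD1 and PPP1R12A rose (33.3%, against 18.5% of all genes) and the other 4 did not pass the test, with a list median of 0.17. CALD1 passed the filter through the newborn arrays alone, and its direction follows in large part from that. Among the 5 members well above background on all 8 arrays 1 rose and 0 fell. The list mean was 2.92, 3.24, 2.94 and 3.68 in the newborn and 2.11, 1.91, 2.37 and 2.47 near term. This mean includes CALD1, which was not well above background on any near-term array. CNN1, MYLK and MYL6 read far above the 75th percentile at both ages. CNN1, the actin-binding calponin, read 6.79, 6.88, 6.70 and 7.43 in the newborn and 8.23, 7.08, 8.68 and 7.70 near term (difference -0.97 ± 0.35, adjusted p = 0.0561). The highest newborn value lay above the lowest near-term value, and CNN1 was called lower when near-term replicate 2 was left out (0.0133) and under normexp (-0.74, 0.0252). MYLK, the kinase that phosphorylates myosin, differed by 0.26 ± 0.47 (0.683), and by leaving out near-term replicate 3, which read 7.54 against at most 5.57 on the other near-term arrays, it passed (0.0328). MYL6, a myosin light chain, differed by -0.43 ± 0.34 (0.341) and PDLIM3, a Z-disc adaptor, by 0.07 ± 0.61 (0.935).

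CALD1 encodes caldesmon, which binds actin and restrains its interaction with myosin. It read -0.52, -0.26, 0.12 and 0.50 on the newborn arrays and was not well above background on any near-term array, where it read -5.41, -6.14, -6.05 and -3.89. CALD1 was at least 16.3-fold higher in the newborn (adjusted p = 0.000303), a bound that sets each near-term value no lower than the dimmest signal well above background on its array. Under normexp its difference was 1.34 and the call was lost (0.145). PPP1R12A, the targeting subunit of myosin phosphatase, read 0.34, 0.35, -0.08 and 0.61 in the newborn and -1.38, -0.38, -1.92 and -1.49 near term. It rose 3.03-fold (1.60 ± 0.33, 0.0068), each newborn value lying above each near-term value, and was not called with the slide as a random block (adjusted p = 0.0864).

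Of 2 genes that act on vascular tone and are named for the size of their change, GJA1 rose and PRKACA fell. GJA1 encodes connexin 43, the channel protein that couples neighbouring cells of the wall, and was among the 15 largest rises of named genes. Its signal was 1.92, 1.37, 1.90 and 2.00 in the newborn and -0.70, -0.02, -1.04 and -0.97 near term. This 5.58-fold rise (2.48 ± 0.27, adjusted p = 0.000584) left a wide gap between the groups, was in the same direction at all 4 probes of the gene, and held with the slide as a random block (0.0141) and under normexp (2.21, 0.000468). PRKACA, the catalytic subunit of protein kinase A, went the other way. It read -1.85, -1.70, -2.22 and -1.71 in the newborn and 0.86, 0.57, 0.83 and 1.64 near term, a 7.18-fold fall (-2.84 ± 0.26, 0.000305). No values overlapped, and both probes fell.

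Of 29 vasoactive receptors and effectors on the array 17 could be tested, and 4 rose and none fell, with a median of 0.64. The share that rose was 23.5%, near the 18.5% of all genes, and the share that fell was 0% against 19.3%. Among the 11 members well above background on all 8 arrays, 2 rose and 0 fell. GUCY1B1, a subunit of the guanylate cyclase that nitric oxide activates, read -0.45, 0.00, -0.49 and -0.43 in the newborn and -1.91, -1.43, -2.94 and -2.21 near term. It rose 3.43-fold (1.78 ± 0.32, adjusted p = 0.00367) with no overlap, and was not called with the slide as a random block (0.0615) or under normexp (0.65, 0.0525). ADM, the vasodilator peptide adrenomedullin, rose 3.36-fold (1.75 ± 0.36, 0.00638) without holding under normexp (0.11, 0.876) or with the slide as a random block (0.0731), and its second probe differed by 0.04. EDN1, the constrictor endothelin-1, was called higher in 3 of 8 fits with 1 array left out (0.0239 to 0.0906, the highest without newborn replicate 3), and not with the slide as a random block (0.201). With that block 1 member of the list, NOS1, was higher (0.0421) and 0 were lower. NOS1, the neuronal nitric oxide synthase, was counted as higher, but its 2 probes moved in opposite directions, and no direction is given for it. The receptors for angiotensin (AGTR1, -0.66, 0.29), endothelin (EDNRA, -0.73, 0.101) and serotonin (HTR2A, 0.64, 0.228) did not pass the test. Under normexp 0 members of the list were higher and 4 lower, and without near-term replicate 4 the counts were 6 and 4.

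The list of adrenergic genes held 3 on the array. ADRB1, the beta1 receptor, was not well above background on any of the 8 arrays, and SLC6A2, the norepinephrine transporter of nerve endings, was so on 3 near-term arrays and no newborn array and was not tested. MAOA, which breaks down norepinephrine, read 0.06, 0.32, 0.21 and 0.30 in the newborn and -1.13, -0.46, -2.28 and -2.79 near term, where 3 arrays were well above background. It rose 3.70-fold (1.89 ± 0.47, adjusted p = 0.0139), with all newborn values above all near-term values, and lost the call with the slide as a random block (0.104) and under normexp (0.45, 0.13).

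Matrix genes moved in both directions, 31.6% of those tested rising and 10.5% falling, against 18.5% and 19.3% of all genes. Of 19 members tested, 6 rose (CCN2, LOX, SERPINH1, THBS1, TIMP3 and TNC) and BGN and TIMP1 fell, with a median of 0.36. The fibrillar collagen genes did not pass the test, COL3A1 differing by 2.02 (adjusted p = 0.0513) and COL1A2 by 1.90 (0.0851), and neither did elastin (ELN, -0.08, 0.928). COL3A1 and COL1A2 passed without near-term replicate 2 (0.00296 and 0.0337), and not with the slide as a random block (0.248 and 0.318). With the slide as a random block 1 member remained called higher and 2 lower.

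LOX, the oxidase that crosslinks collagen and elastin, read 1.22, 0.53, 1.39 and -0.09 in the newborn and -3.61, -0.68, -3.63 and -0.89 near term. Near-term replicates 2 and 4 lay close to the newborn range, and no value overlapped. The 7.80-fold rise (2.96 ± 0.75, adjusted p = 0.0151) was called with any 1 array left out and, at a smaller difference of 1.11, under normexp (0.018), and not with the slide as a random block (0.125). CCN2, a matricellular protein induced by stretch and by transforming growth factor beta, read 4.58, 3.79, 4.47 and 4.63 against 2.70, 2.92, 1.83 and 0.10. It rose 5.57-fold (2.48 ± 0.57, 0.0107), the lowest near-term value being that of the dim replicate 4, without which the difference was 1.88 (0.00347), and it was not called with the slide as a random block (0.0702). THBS1, thrombospondin 1, read -0.80, 0.70, 1.77 and 1.36 against -1.11, -4.27, -3.13 and -3.10, with 3 near-term arrays well above background. Replicate 1 was the lowest newborn and the highest near-term array, and these values nearly met. THBS1 rose 12.6-fold (3.66 ± 0.73, 0.00592), and lost the call under normexp (2.06, 0.0519) and with the slide as a random block (0.0691).

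BGN and TIMP1 are among the bright genes of the artery. BGN, the small proteoglycan biglycan, read 3.60, 2.98, 3.49 and 2.74 in the newborn and 5.63, 5.54, 5.56 and 4.33 near term, a 4.18-fold fall (-2.06 ± 0.35, adjusted p = 0.00287). TIMP1, an inhibitor of matrix metalloproteinases, read 4.24, 4.55, 4.59 and 4.57 against 6.22, 5.88, 6.68 and 5.57, a 3.03-fold fall (-1.60 ± 0.26, 0.0025). In both genes every near-term array exceeded every newborn array. Their calls held with the slide as a random block (0.037 and 0.0389) and under normexp, where the differences were -1.54 and -0.81.

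Some glucocorticoid-responsive genes were higher after birth. Of 12 members tested, KLF9, DUSP1, TSC22D3 and CEBPD rose, GLUL fell, 7 did not pass the test, and the median was 1.19. The shares were 33.3% higher and 8.33% lower, against 18.5% and 19.3% of all genes. With the slide as a random block 1 was higher and 1 lower. The receptor NR3C1 was not well above background on any newborn array and on 1 near-term array, and was not tested. FKBP5, a co-chaperone of the receptor, differed by 0.56 (adjusted p = 0.109) and the metallothionein MT1A by 2.49 (0.0703). Among the 10 members well above background on all 8 arrays, 4 rose and 1 fell. KLF9, a transcription factor induced through the receptor, read -0.32, -0.23, -0.04 and -0.57 in the newborn and -4.13, -1.86, -2.76 and -1.69 near term. It rose 4.99-fold (2.32 ± 0.49, 0.00763) with tight newborn values and widely spaced near-term values that did not overlap. TSC22D3, the leucine zipper protein GILZ, read -0.07, -0.36, 0.27 and -0.04 against -2.11, -1.74, -2.93 and -1.37, a 3.97-fold rise (1.99 ± 0.33, 0.00287), again with no overlap. Under normexp KLF9 differed by 0.63 (0.0948) and TSC22D3 by 0.66 (0.0838), so that neither was called, and with the slide as a random block TSC22D3 kept its call (0.0446) and KLF9 did not (0.0571).

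DUSP1, a phosphatase that switches off mitogen-activated kinases, belongs to both the glucocorticoid and the immediate early lists. It read 3.24, 1.69, 2.85 and 2.98 in the newborn and 0.56, 0.67, 0.76 and -1.19 near term, where replicate 4 stood apart. DUSP1 rose 5.61-fold (2.49 ± 0.50, adjusted p = 0.00612), with no overlap, and without that array the log2 difference was 2.03 (0.00387). It was not called with the slide as a random block (0.0536). GLUL, glutamine synthetase, ran against its list. Its signal was 1.65, 1.72, 2.29 and 1.85 in the newborn and 3.39, 2.92, 3.66 and 3.48 near term, a 2.80-fold fall (-1.48 ± 0.23, 0.00222) without overlap that held with the slide as a random block (0.0397).

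Immediate early genes, which many stimuli switch on within minutes, were called in a share of 21.7%, against 37.8% of all genes. Their share of rises was 17.4%, against 18.5% of all genes. Of 23 tested, 4 rose (ATF3, FOS, DUSP1 and FOSL2) and JUND fell, with a median of 0.50, and with the slide as a random block 1 was higher and 0 lower. FOS was called in 2 of 8 fits with 1 array left out (0.00382 to 0.0869, the highest without newborn replicate 1) and JUND in 3 (0.0129 to 0.0849, the highest without newborn replicate 2), and both lost the call without near-term replicate 4 (0.0523 and 0.0527). FOSL2 kept it in all 8 and lost it with the slide as a random block (0.0938). EGR1 (-0.19, adjusted p = 0.766), JUNB (0.00, 0.999), MYC (-0.15, 0.804) and ZFP36 (0.18, 0.654) did not pass the test. ATF3, a stress-induced transcription factor, read 0.38, -1.23, 0.51 and 1.58 in the newborn and -3.36, -2.63, -4.05 and -3.34 near term, with 2 near-term arrays well above background. The groups did not overlap although the newborn values spread widely. ATF3 was called higher (0.00196), and no fold is given against near-term signals so dim. It held with the slide as a random block (0.0414) and not under normexp (1.40, 0.0669), where the list had 2 members higher and 4 lower.

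Heat shock and folding genes were the list with the most called members, 9 of 19 higher (47.4%, against 18.5% of all genes). HSF1 was lower (5.26%, against 19.3%), and the median was 1.05. Those that rose were HSPA8, HSPA13, CRELD2, HSPA5, HSPA1A, DNAJA1, HSP90AA1, DNAJB9 and DNAJB1, chaperones of the cytosol and of the endoplasmic reticulum. Of the 15 members well above background on all 8 arrays, 6 rose and 1 fell. The counts were 7 and 1 under normexp and 4 and 0 with the slide as a random block. ATF4, a regulator of the response to misfolded protein, did not pass the test (0.16, adjusted p = 0.511).

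HSPA8, the constitutive HSC70 of the cytosol, read 3.48, 3.15, 3.69 and 3.40 in the newborn and 0.39, 0.63, -0.50 and -0.66 near term. It rose 11.1-fold (3.47 ± 0.32, adjusted p = 0.000303), a gap of several times the spread of either group, and held with the slide as a random block (0.00667) and under normexp (3.26, 0.000297). HSPA13, a chaperone of microsomes, read -1.40, -1.09, -0.81 and -1.60 against -4.08, -3.31, -4.52 and -3.77, with 2 near-term arrays well above background. It was called higher (0.000584) with no overlap, and no fold is given against near-term signals so dim. HSPA13 lost the call under normexp (0.06, 0.919). CRELD2, induced by stress of the endoplasmic reticulum, rose 5.05-fold (2.34 ± 0.54, 0.0104). Its near-term replicate 4 at -5.04 lay far below the other near-term arrays at -2.66 to -2.42, and without it the difference was 1.72 (0.000403). With the slide as a random block (0.0556) and under normexp (0.19, 0.706) CRELD2 was not called. HSF1, the transcription factor of the heat shock response, fell 2.49-fold (-1.31 ± 0.28, 0.00768), its newborn values lying between -2.99 and -2.91 and its near-term values between -2.31 and -1.07, and was not called with the slide as a random block (0.0755).

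Sterol synthesis genes rose in part, 50% of those tested against 18.5% of all genes. Of 6 tested, 3 rose, INSIG1 and CYP51A1 among them, none fell, and the median was 1.43. Among the 3 members well above background on all 8 arrays 2 rose and 0 fell. The counts were 1 higher and 1 lower under normexp, and 2 and 0 with the slide as a random block. CYP51A1, which demethylates lanosterol, read -0.23, 0.15, 0.03 and -0.03 in the newborn and -1.46, -1.04, -1.22 and -1.17 near term. It rose 2.30-fold (1.20 ± 0.18, adjusted p = 0.00195) with no overlap, and held with the slide as a random block (0.0304) and under normexp (0.73, 0.0176). INSIG1, which holds back the activation of sterol regulators, was called higher (0.00897). It was well above background on 2 near-term arrays only, and no fold is given. INSIG1 was not called with the slide as a random block (0.072) or under normexp, where it differed by -0.29 (0.606). SQLE, squalene epoxidase, did not pass the test (-0.18, 0.738).

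Genes of the oxygen response fell in a share near that of all genes, 23.5% against 19.3%. Of 17 tested, ADM rose and EGLN3, ALDOA, ERO1A and VHL fell, 1 of them with the slide as a random block, with a median of -0.15, and 12 did not pass the test, among them VEGFA (-0.36, adjusted p = 0.395), HIF1A (2.21, 0.11) and the glucose transporter SLC2A1 (0.38, 0.541). EGLN3, a prolyl hydroxylase that is both a sensor of oxygen and a target of hypoxia-inducible factor, read -3.21, -3.39, -4.13 and -3.24 in the newborn and -1.41, -1.78, -0.97 and -1.57 near term. It fell 4.16-fold (-2.06 ± 0.28, 0.00126), with a clear gap between the groups, and held with the slide as a random block (0.0268). ALDOA, aldolase of glycolysis, fell 2.34-fold (-1.22 ± 0.23, 0.0046), its values of 3.81 to 4.13 lying below 4.79 to 5.61, and lost the call with the slide as a random block (0.058) and under normexp (-0.44, 0.0746). ERO1A, an oxidase of the endoplasmic reticulum, fell 1.78-fold (-0.83 ± 0.26, 0.0356). With single arrays left out it was called 2 of 8 times, without near-term replicate 1 or 4, with adjusted p from 0.0188 to 0.0993, the highest without newborn replicate 4, and not with the slide as a random block (0.179).

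In mitochondrial respiration, 2 of 11 members rose (18.2%) and 3 fell (27.3%), with a median of -0.64. Of all genes 18.5% rose and 19.3% fell. ATP5IF1, which inhibits the reverse action of ATP synthase, had 1 of the 3 smallest adjusted p-values among the named genes that rose. It read 0.84, 1.16, 0.90 and 1.18 in the newborn and -3.63, -3.52, -4.03 and -2.70 near term, where 3 arrays were well above background. This 22.5-fold rise (4.49 ± 0.29, adjusted p = 9.85e-05) held with the slide as a random block (0.00222) and under normexp (2.50, 0.00536). SCO2, a copper chaperone for cytochrome c oxidase, read -1.65, -1.89, -2.14 and -2.48 against -0.58, -0.40, -0.71 and -0.67, a 2.73-fold fall (-1.45 ± 0.22, 0.00196) without overlap. NDUFV2 of complex I fell 2.34-fold (-1.23 ± 0.28, 0.00959), not called with the slide as a random block (0.11) or under normexp (-0.46, less than 1.5-fold), and the mitochondrial gene MT-ND1 was called higher in 1 of 8 fits with 1 array left out, losing the call without near-term replicate 4 (0.0528) and with the slide as a random block (0.191). UQCC1, an assembly factor of complex III, fell 1.92-fold (0.0324), called in 3 of 8 fits with 1 array left out, those without near-term replicates 2, 3 or 4 (0.0154 to 0.0877, the highest without newborn replicate 3), and not with the slide as a random block (0.209) or under normexp (-0.39, 0.135).

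Antioxidant genes went both ways, with NFE2L2, SOD2 and TXN higher, GSTP1 and GPX1 lower among 14 tested, and a median of 0.29. The shares were 21.4% higher and 14.3% lower, against 18.5% and 19.3% of all genes. With the slide as a random block 0 were higher and 1 lower, and TXN was called in 2 of 8 fits with 1 array left out and not without near-term replicate 4. NFE2L2, the transcription factor NRF2, read 0.06, -0.08, 0.23 and -0.31 in the newborn and between -4.44 and -1.47 near term, with 3 near-term arrays well above background. It rose 7.16-fold at its brightest probe (2.84 ± 0.54, adjusted p = 0.00467), with no overlap, while its other probes differed by 0.70 and 0.89 in the same direction and its difference under normexp was 0.82 (0.022). The gene was not called with the slide as a random block (0.0755). GSTP1, a glutathione transferase, read 4.75, 4.90, 4.66 and 4.32 against 6.23, 5.89, 6.83 and 6.14. It fell 3.06-fold (-1.62 ± 0.25, 0.00199) and held with the slide as a random block (0.0389), every near-term array lying above every newborn array. GPX1, a glutathione peroxidase, fell 2.22-fold (-1.15 ± 0.21, 0.00418) and lost the call there (0.0606) and under normexp (-0.37, 0.152). The probe counted as SOD2 carries that name in the array file and SOD1 in the study's list, and no value is given for it.

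**Figure D2:**
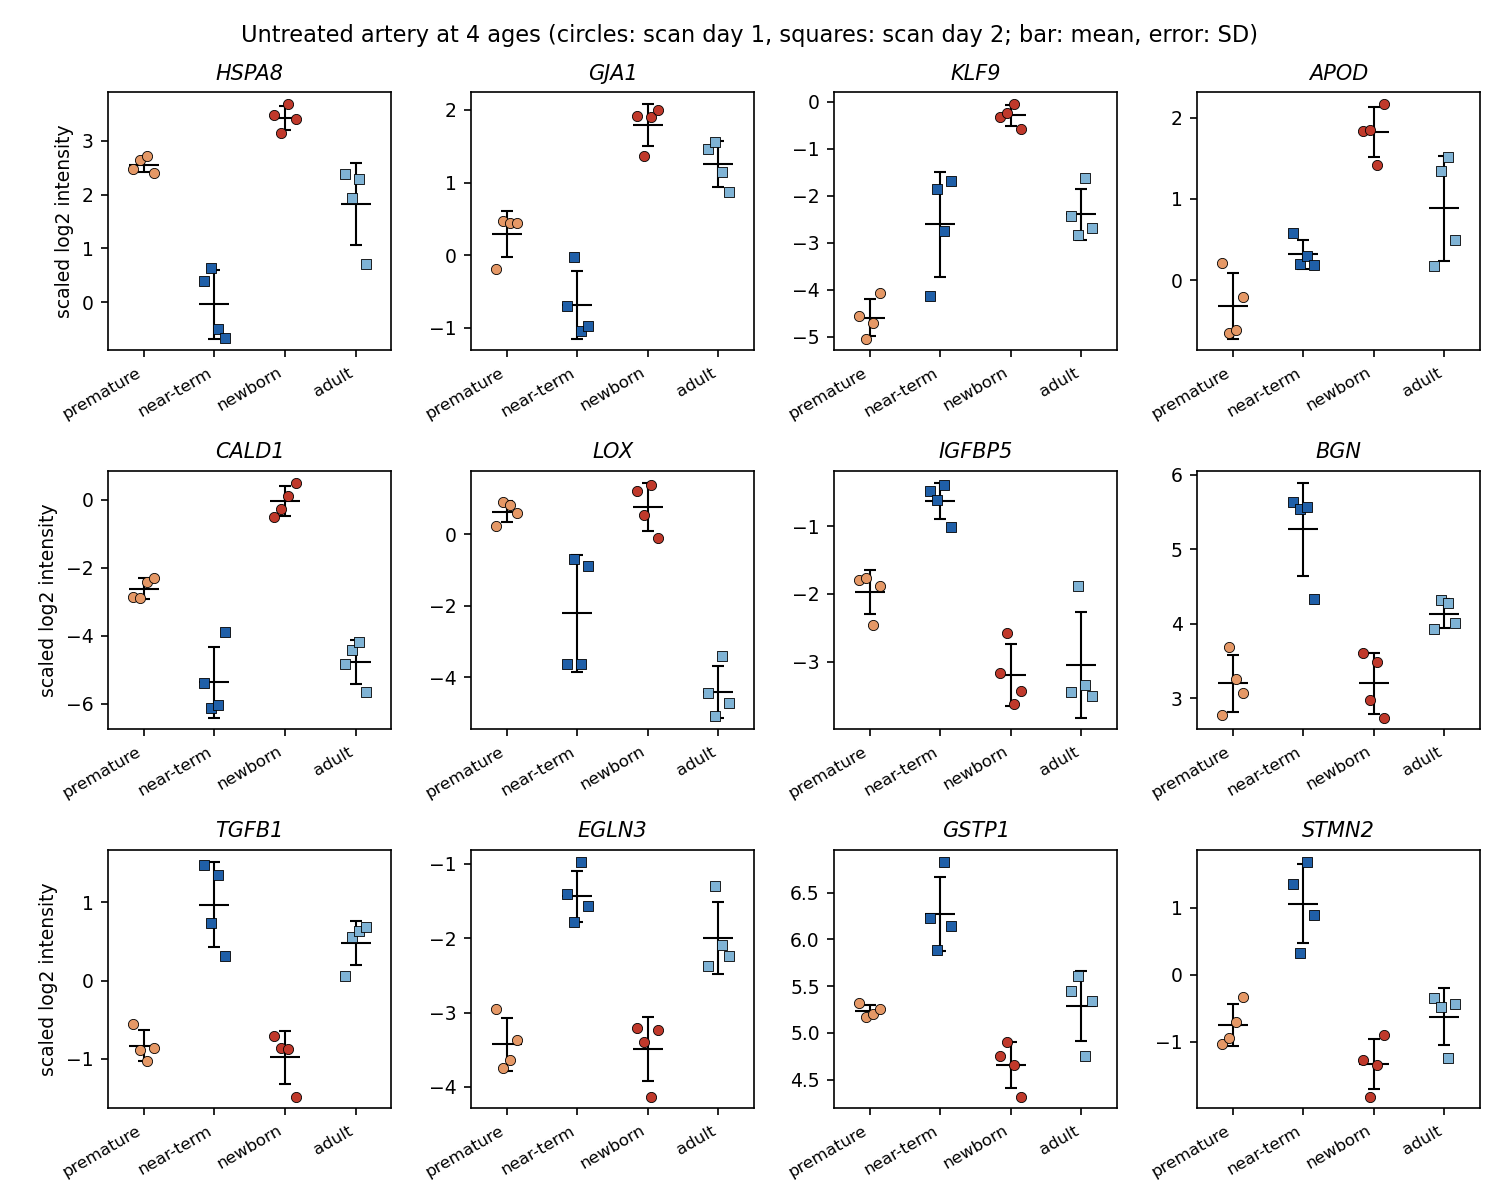
Log2 signal relative to the array's 75th percentile for 12 genes on the 16 untreated arrays, 4 at each age, with the mean and SD of each group; circles mark arrays scanned on the first day (premature and newborn) and squares those scanned on the second (near-term and adult). HSPA8, GJA1, KLF9, APOD, CALD1 and LOX sit higher in the newborn lamb than in the near-term fetus, and IGFBP5, BGN, TGFB1, EGLN3, GSTP1 and STMN2 sit lower.

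The plot of 12 genes by array shows the newborn and near-term values apart in each panel, with the premature and adult levels beside them. In KLF9, GJA1 and APOD the newborn stood above the near-term fetus while the premature fetus stood below the adult, and in IGFBP5 the order was the reverse at both.

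Growth factor genes that were called all fell. Of 20 members tested on the list of growth factors, insulin-like factors and imprinted genes, 7 fell, 13 did not pass the test and none rose, with a median of -0.93, and 6 fell and none rose among the 18 well above background on all 8 arrays. The share that fell was 35%, against 19.3% of all genes. Those that fell were IGFBP5, TGFB1, INSR, IGF2R, IGFBP4, HMGA1 and TGFBR1. The ligands IGF1 (-1.75, adjusted p = 0.0816) and IGF2 (-1.27, 0.0807) and the receptor IGF1R (-0.87, 0.0669) did not pass the test. Under normexp, which lowered the median of all genes, 0 were higher and 9 lower, and 2 falls held with the slide as a random block.

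IGFBP5, which binds insulin-like growth factors in the matrix, read -3.16, -2.57, -3.63 and -3.43 in the newborn and -0.49, -0.62, -0.40 and -1.01 near term. It fell 5.93-fold (-2.57 ± 0.27, adjusted p = 0.000484) at both of its probes, with no overlap, and held with the slide as a random block (0.0122). TGFB1, transforming growth factor beta 1, a driver of matrix deposition in the arterial wall, read -0.71, -0.86, -0.87 and -1.48 against 1.48, 0.74, 1.35 and 0.31. The 3.87-fold fall (-1.95 ± 0.31, 0.00225) showed no overlap and held with the slide as a random block (0.0338). INSR, the insulin receptor, was well above background on 1 newborn array and all near-term arrays, and was called lower (0.00418), a call lost with the slide as a random block (0.0591) and under quantile normalization.

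Angiogenesis genes gave 3 falls and no rise among 14 tested, with a median of -0.37, and their share of falls (21.4%) was near that of all genes (19.3%). Under normexp 0 of the 14 were higher and 7 lower, where all 9301 genes tested gave 855 higher and 2471 lower. PDGFB, a ligand that recruits mural cells, had a probe that was not well above background on any newborn array, where it read -5.04, -4.14, -4.71 and -4.76, and read -3.11, -2.80, -3.63 and -1.51 near term. It was called lower (adjusted p = 0.01), and no fold is given. SPHK1, which makes sphingosine 1-phosphate, fell 2.24-fold (-1.16 ± 0.30, 0.0164), a call lost without newborn replicate 1 (0.0517). EFNB1, an ephrin ligand, fell 1.89-fold (-0.92 ± 0.26, 0.024) and was called in 4 of 8 fits with 1 array left out, losing the call without newborn replicates 1, 3 or 4 or near-term replicate 1 (range 0.003 to 0.0703, the highest without newborn replicate 3). None of the 3 was called with the slide as a random block (adjusted p = 0.0691, 0.147 and 0.153), nor was EFNB1 under normexp (-0.58, less than 1.5-fold).

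Of 18 cell cycle genes 5 rose and 1 fell with a median of 0.59, and 1 was higher and 0 lower with the slide as a random block, but 6 of these 18 passed through 1 group alone, and among the other 12 the counts were 2 and 0. The 18 gave shares of 27.8% higher and 5.56% lower, against 18.5% and 19.3% of all genes. Under normexp 3 were higher and 6 lower. SKP2, which marks cell cycle inhibitors for destruction, read -1.78, -1.14, -1.45 and -1.21 in the newborn and -3.94, -4.93, -4.09 and -2.74 near term, with 2 near-term arrays well above background. It was called higher (adjusted p = 0.00278) without overlap, and no fold is given against near-term signals so dim. SKP2 held with the slide as a random block (0.0342), but its difference under normexp was 0.00 (0.999). CKS2, a binding partner of cyclin-dependent kinases, was bright in both groups at 2.49, 3.26, 2.67 and 2.46 against 1.75, 1.73, 1.89 and 1.25. It rose 2.10-fold (1.07 ± 0.25, 0.0104) with no overlap and held under normexp (1.26, 0.0045), not with the slide as a random block (0.0938). CCNB2 and FAM83D were each called higher in 2 of 8 fits with 1 array left out, and not without near-term replicate 4 (0.0534 and 0.0624) or with the slide as a random block (0.174 and 0.2). PCNA (0.65, 0.0515) and MCM7 (0.14, 0.78) of the replication machinery did not pass the test. PCNA was called without newborn replicate 4 (0.0473), both were called under normexp (0.00572 and 0.0492), and neither with the slide as a random block (0.216 and 0.933). MCM2, a replication helicase subunit, was called higher (0.0292) with 2 near-term arrays well above background, and no fold is given. It was called in 4 of 8 fits with 1 array left out, not in those without a newborn array (0.0104 to 0.082, the highest without newborn replicate 4). MCM2 differed by -0.07 under normexp (0.865), with no call under quantile normalization either. CHAF1A, a chromatin assembly factor, fell 4.64-fold (0.0332) in 3 of 8 fits, those without near-term replicates 1, 3 or 4 (0.00977 to 0.0912, the highest without newborn replicate 4). Neither was called with the slide as a random block (0.211 and 0.164).

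**Figure D3:**
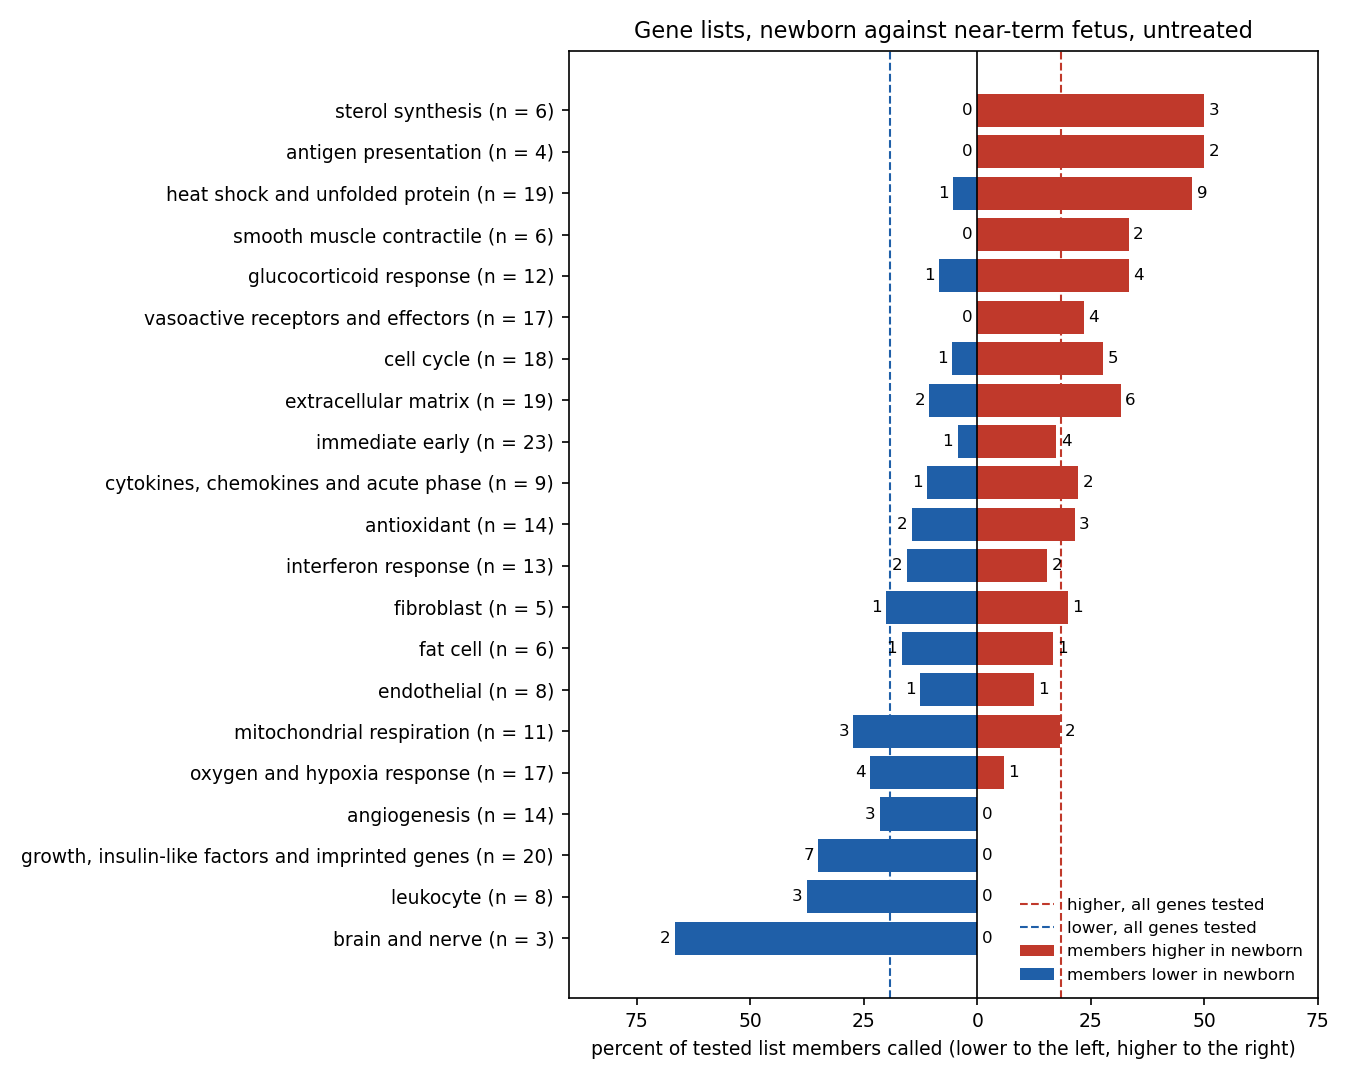
Percent of tested members called higher (to the right) and lower (to the left) in the untreated newborn lamb for each gene list with at least 3 members tested, with dashed lines at the percent of all genes tested, 18.5 higher and 19.3 lower. Antigen presentation, sterol and heat shock genes extend furthest past the line on the right, and nerve markers, leukocyte markers and growth factors past that on the left.

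The plot of list shares sets each list against all genes tested, and most lists lie on both sides of 0. Several lists hold few members, so that a single gene moves their share by a large step.

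Markers of cells other than smooth muscle were compared because the segments hold several cell types, and their part in the results above was not tested. Nerve and brain markers were lower in the newborn, 2 of 3 tested (66.7%, against 19.3% of all genes), with a median of -1.70. The mean of the 3 was -2.28, -1.66, -1.87 and -1.92 on the newborn arrays and -0.16, -0.88, -0.34 and 0.44 on the near-term arrays. STMN2, a protein of growing axons, read -1.27, -1.82, -1.35 and -0.90 against 1.36, 0.32, 1.69 and 0.89, a 5.28-fold fall (-2.40 ± 0.33, adjusted p = 0.00138) with no overlap that held with the slide as a random block (0.0282). S100B, a glial marker, did not pass the test (0.0893), and GFAP and AQP4 of astrocytes were well above background on at most 2 arrays of either group.

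Leukocyte markers were lower in 3 of 8 tested and higher in none, with a median of -0.90 and means of -1.91, -1.92, -1.34 and -2.13 in the newborn against -1.32, -0.83, -0.87 and -1.14 near term. The share that fell was 37.5%, against 19.3% of all genes. The members that fell, RNASE6, TYROBP and FCER1G, are genes of myeloid cells, and their falls were small and unsteady. RNASE6 fell 2.28-fold (adjusted p = 0.0253) and was called in 4 of 8 fits with 1 array left out, those without newborn replicates 1 or 3 or near-term replicates 1 or 4 (0.0234 to 0.0688, the highest without newborn replicate 2). TYROBP fell 1.91-fold (0.0371) in 2 of 8, those without near-term replicates 2 or 4 (0.00665 to 0.0946, the highest without newborn replicate 3). FCER1G fell 1.60-fold (0.0168) in 5 of 8, losing the call without newborn replicates 1, 2 or 4 (0.0155 to 0.0586, the highest without newborn replicate 1). CD14, whose probe gave the highest signal of the list (-0.12, 0.908), and CD68 (0.28, 0.399) did not pass the test, and no member was called with the slide as a random block (adjusted p = 0.182, 0.165 and 0.139 for the 3 above). Under normexp 0 members were higher and 5 lower, TYROBP (-0.81, 0.0645) and FCER1G (-0.33, 0.143) not among them. Of the T cell genes, TRAC (-0.88, 0.0669) and CD3E (-1.64, 0.0564) did not pass the test. CD3D and CD4 were well above background on no newborn array and on 2 near-term arrays each.

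Endothelial markers moved little, with 1 of 8 tested higher, 1 lower and a median of 0.26. Each direction held 12.5% of those tested, against 18.5% and 19.3% of all genes. The means on the newborn arrays, -1.58, -1.80, -1.69 and -2.02, lay within the range of the near-term means of -1.99, -1.58, -2.78 and -1.48. FLT1, TEK and SELE were well above background on no newborn array and on 3, 1 and 1 near-term arrays, and were not tested. NOS3, the endothelial nitric oxide synthase, differed by 0.66 (adjusted p = 0.248) and KDR, a receptor for vascular endothelial growth factor, by -0.45 (0.534). SELP, an adhesion molecule of endothelium and platelets, rose 2.21-fold (0.0317) in 3 of 8 fits with 1 array left out, those without newborn replicate 2 or near-term replicates 2 or 4 (0.0156 to 0.086, the highest without newborn replicate 1). THBD, thrombomodulin, fell 1.69-fold (0.0225) in 5 of 8, losing the call without newborn replicates 1, 2 or 4 (0.00926 to 0.0678, the highest without newborn replicate 2). Neither was called with the slide as a random block (0.213 and 0.155), and SELP was not called under normexp (0.38, 0.343). Under normexp 0 members were higher and 4 lower with a median of -0.99, and without near-term replicate 4 the counts were 3 and 1.

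Fibroblast markers split, with APOD higher, PODNL1 lower and 3 of 5 not called, among them the proteoglycan DCN (-0.12, adjusted p = 0.855). Their mean was 0.90, 0.47, 0.73 and 0.67 in the newborn and 0.62, 1.43, 0.68 and 1.04 near term, and the median difference was -0.27. APOD, a lipid-binding apolipoprotein, read 1.83, 1.85, 1.42 and 2.17 against 0.58, 0.20, 0.30 and 0.19, a 2.83-fold rise (adjusted p = 0.00151) with no overlap that held with the slide as a random block (0.0284) and under normexp (1.81, 0.000774). PODNL1, a small proteoglycan, fell 2.71-fold (0.0268) in 4 of 8 fits with 1 array left out, losing the call without newborn replicates 1, 2 or 3 or near-term replicate 2 (0.00713 to 0.075, the highest without newborn replicate 3), and not with the slide as a random block (0.134). Of the leptomeningeal markers, PTGDS, the prostaglandin D synthase abundant in the meninges, fell and FOXC1 did not pass the test (-0.40, 0.202), with a median of -0.91. PTGDS read 5.69, 6.05, 6.29 and 6.45 in the newborn and 7.71, 7.12, 7.80 and 7.48 near term. It fell 2.66-fold (-1.41 ± 0.24, 0.00306) without overlap and was called with the slide as a random block (0.0499) and under normexp (-0.67, 0.034). The mean of these 2 genes was 3.58, 3.84, 3.80 and 4.14 against 4.92, 4.56, 5.06 and 4.46.

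Fat cell markers gave FABP4 higher and PPARG lower among 6 tested, with a median of -0.95 and means of -2.90, -2.62, -2.57 and -2.35 against -2.89, -1.82, -2.83 and -0.80. Each direction held 16.7% of those tested, against 18.5% and 19.3% of all genes. LEP and UCP1 were each well above background on 3 near-term arrays and on no newborn array, and were not tested. PPARG, the nuclear receptor of fat cells that is also active in vessel walls, fell 3.98-fold (-1.99 ± 0.42, adjusted p = 0.00695) from near-term values of -2.37 to -0.13 to a newborn mean of -3.12, with every newborn value below every near-term value, and was not called with the slide as a random block (0.0542). FABP4, a fatty acid carrier, rose 2.67-fold (0.0394) over 3 newborn arrays, an outlier spot on newborn replicate 1 having been left out. It was called in 3 of 8 fits, those without near-term replicates 2, 3 or 4 (0.0245 to 0.13, the highest without newborn replicate 2), and not with the slide as a random block (0.22) or under normexp (0.61, 0.0751). Of the red cell genes, HBA1, alpha globin, rose 1.87-fold (0.91 ± 0.27, 0.0276) and HBB, beta globin, did not pass the test (0.25 ± 0.61, 0.776), with a median of 0.58 and means of 1.51, 2.73, 2.31 and 2.24 against 1.29, 1.22, 1.86 and 2.11. HBA1 read 5.00, 4.58, 5.24 and 4.53 in the newborn and 3.62, 3.77, 4.53 and 3.79 near term, the lowest newborn and the highest near-term array meeting at 4.53. It was called in 4 of 8 fits, losing the call without newborn replicates 1 or 3 or near-term replicates 1 or 2 (0.0116 to 0.0852, the highest without newborn replicate 3), and not with the slide as a random block (0.164).

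Immune signalling genes were called in shares of 33.3% (cytokines), 30.8% (interferon) and 50% (antigen presentation), against 37.8% of all genes. Among cytokines, chemokines and acute phase genes, 9 of 22 were bright enough to test, PTX3 and CXCL16 rose and 1 gene fell, with a median of 0.66. The probe of the gene that fell is named CXCL1 or CXCL2 depending on the source, and its call was lost without near-term replicate 4 and with the slide as a random block. TNF, IL1B and IL6 were not well above background on any newborn array and were not tested. CXCL16, a chemokine bound to the membrane, rose 2.83-fold (adjusted p = 0.00992), with newborn values of -2.34 to -1.20 and near-term values of -3.51 to -2.32, the lowest of the first just below the highest of the second. PTX3, a pentraxin of the vessel wall, rose 2.85-fold (0.0302) in 2 of 8 fits with 1 array left out, those without near-term replicates 2 or 4 (0.0114 to 0.0849, the highest without newborn replicate 1). Under normexp their differences were 0.00 and -0.03, and neither was called with the slide as a random block (0.0938 and 0.182).

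Of 13 interferon-responsive genes tested, PARP9 and GBP2 were higher and SP110 and IFI35 lower, with a median of -0.20. The higher genes passed the filter through the newborn arrays alone, and among the 11 members well above background on all 8 arrays 0 were higher and 2 lower. MX1 (-0.24, adjusted p = 0.745), ISG15 (-0.96, 0.172) and IRF1 (-0.56, 0.307) did not pass the test. PARP9 read -2.16, -2.14, -2.02 and -1.83 in the newborn and -3.36, -3.32, -3.45 and -3.72 near term. It rose 2.69-fold (1.43 ± 0.18, 0.00104) with no overlap and held with the slide as a random block (0.0192), and differed by -0.18 under normexp. SP110, a nuclear body protein, fell 3.38-fold (-1.76 ± 0.37, 0.00731), its newborn replicate 4 at -0.66 lying close to near-term replicate 2 at -0.48, and IFI35 fell 1.97-fold (0.0106). GBP2, a guanylate-binding protein, rose 2.37-fold (0.0377) in 2 of 8 fits with 1 array left out, those without near-term replicates 2 or 4 (0.015 to 0.0902, the highest without newborn replicate 1), and differed by -0.65 under normexp. SP110, IFI35 and GBP2 were not called with the slide as a random block (0.0877, 0.0985 and 0.217), nor was IFI35 under normexp (-0.42, 0.118). Of 4 antigen presentation genes, ERAP1 and B2M rose and the median was 0.59, and with the slide as a random block 0 were called. B2M was called in 2 of 8 fits with 1 array left out and lost the call without near-term replicate 4. ERAP1, a peptide-trimming protease, rose 3.38-fold (0.0454), a call that held in 1 of 8 fits, that without near-term replicate 4 (0.000548), and failed without any other array (up to 0.106, without newborn replicate 2). That replicate read -0.92, above the newborn mean of -1.14, and the other near-term arrays -4.06 to -3.31. Without it 1 member of the list was called in place of 2, and ERAP1 was not called with the slide as a random block (0.182) or under normexp (0.26, 0.682).

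The largest rises among named genes well above background on all 8 arrays included those of SAT1, HSPA8, LOX and SPCS1. SAT1, the enzyme that acetylates spermine and spermidine for breakdown, read 1.52, 1.08, 1.70 and 0.91 in the newborn and -1.90, -2.11, -3.14 and -1.77 near term, an 11.6-fold rise (3.53 ± 0.34, adjusted p = 0.000322). SPCS1 of the signal peptidase rose 7.35-fold (2.88 ± 0.23, 0.000244) and YWHAZ, a 14-3-3 adaptor protein, 7.18-fold (2.84 ± 0.27, 0.000309). None of these 3 genes overlapped between groups, and all kept the call with the slide as a random block (0.00499 to 0.00748 for SPCS1, YWHAZ and SAT1) and under normexp (2.07 to 2.82). NUDT4 rose 7.15-fold, GRAP 5.13-fold, GALNT7 4.50-fold, the amino acid transporter SLC38A2 4.43-fold and the ribosomal protein RPS4X 4.35-fold, and of these GALNT7 lost the call under normexp (0.175). PICALM, an adaptor of clathrin-mediated uptake, rose 14.4-fold (3.85 ± 0.25, 9.85e-05) and ZFP238, a transcriptional repressor, 7.29-fold (2.87 ± 0.22, 0.000244), each on 3 near-term arrays well above background, and ZFP238 lost the call under normexp (0.09, 0.898).

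The largest falls among named genes well above background on all 8 arrays were of LY6E, PRKACA, C10ORF10, IGFBP5 and TNNI1. LY6E, a membrane-anchored protein induced by interferon, read -3.56, -3.65, -2.92 and -3.57 in the newborn and -1.97, 0.07, -0.41 and 1.28 near term, an 8.99-fold fall (-3.17 ± 0.59, adjusted p = 0.00446) over widely spaced near-term values that stayed above the newborn ones. C10ORF10, also known as DEPP1 and a target of FOXO factors, read -0.40, -1.02, -0.46 and -0.32 against 2.30, 1.82, 1.94 and 2.16, a 6.10-fold fall (-2.61 ± 0.22, 0.000258) with small spread in both groups. TNNI1, the slow skeletal troponin I, fell 5.82-fold (-2.54 ± 0.34, 0.00123) and MT3, a metallothionein, 5.81-fold (-2.54 ± 0.34, 0.00127). YEATS2 fell 4.90-fold, CFL1, the actin-severing cofilin, 4.89-fold, TSC22D4 4.79-fold, NIPAL4 4.78-fold, the protease CAPN1 4.70-fold, CYBA, a subunit of NADPH oxidases, 4.58-fold, JMJD6 4.47-fold and DDX19B 4.42-fold. CYBA (0.0544) and DDX19B (0.051) lost the call with the slide as a random block, and the others kept it.

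Several genes were well above background in 1 group only and have a bound in place of a fold. Beside CALD1, those at least this much higher in the newborn were C13ORF15 (also RGCC, 4.40-fold, adjusted p = 0.00251), ZMYND11 (3.52-fold, 0.00113), OSTM1 (3.33-fold, 0.000493) and SNX9 (2.16-fold, 0.000636). These 4 were called on dim near-term signals, and under normexp they differed by -0.06, -0.28, -0.29 and -0.59, none called. At least this much lower were TRPV6, a calcium channel of epithelia (10.2-fold, 0.00229), ZG16B (6.10-fold, 0.00209), PPY (5.85-fold, 0.00137), BATF3, a transcription factor (5.57-fold, 0.000293), COL4A3, a basement membrane collagen (5.21-fold, 0.00353), and ATXN2L (4.77-fold, 0.000293). These 6 genes kept the call with the slide as a random block. Under normexp they kept it too, at log2 differences of -2.61, -2.14, -2.35, -2.63, -2.52 and -2.19 in that order. The bounds belong to the array software's own subtraction and need not hold under normexp. In PHE-treated arteries TRPV6 (adjusted p = 0.074), ZG16B (0.135), PPY (0.147) and BATF3 (0.466) were not called. COL4A3 was not tested there, and ATXN2L was called lower (0.000106). The dim near-term replicate 4 read highest of the near-term arrays in all 6, so that their bounds rest in part on it. For TRPV6 the near-term signal was -2.97, -1.45, -2.06 and 0.76, and for COL4A3 -4.07, -1.94, -3.42 and -0.15. Without that array both genes were still called (adjusted p = 0.000607 and 0.00133), and their bounds would be smaller.

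The PHE-treated segments of the same ages lie on 8 other arrays. There 4325 of 10050 genes were called between newborn and near-term (43.0%), 2005 higher and 2320 lower. Of 9185 genes tested in both comparisons, 3449 were called untreated and 3923 with PHE, and 2151 were called in the same direction in both, 62.4% of the first and 54.8% of the second, while 37 were called in opposite directions. Treated arrays of each age were scanned on the same day as the untreated ones, so that scan day and age are joined there too. Each artery was cut into segments, so treated and untreated arrays may come from the same animals, and the 2 comparisons may not be independent. Of the 100 named genes called untreated, 62 were called in the same direction with PHE, 36 were not called, and COL4A3 was not tested there. Those not called included HSPA8 (0.65, adjusted p = 0.466), TIMP1 (-0.27, 0.594), GSTP1 (-0.48, 0.217) and STMN2 (-0.61, 0.141). ATF3 alone was called in the opposite direction. With PHE it read 2.60, 3.46, 3.28 and 3.71 in the newborn and 3.16, 5.63, 5.67 and 6.25 near term, a difference of -1.92 (adjusted p = 0.032).

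**Figure D4:**
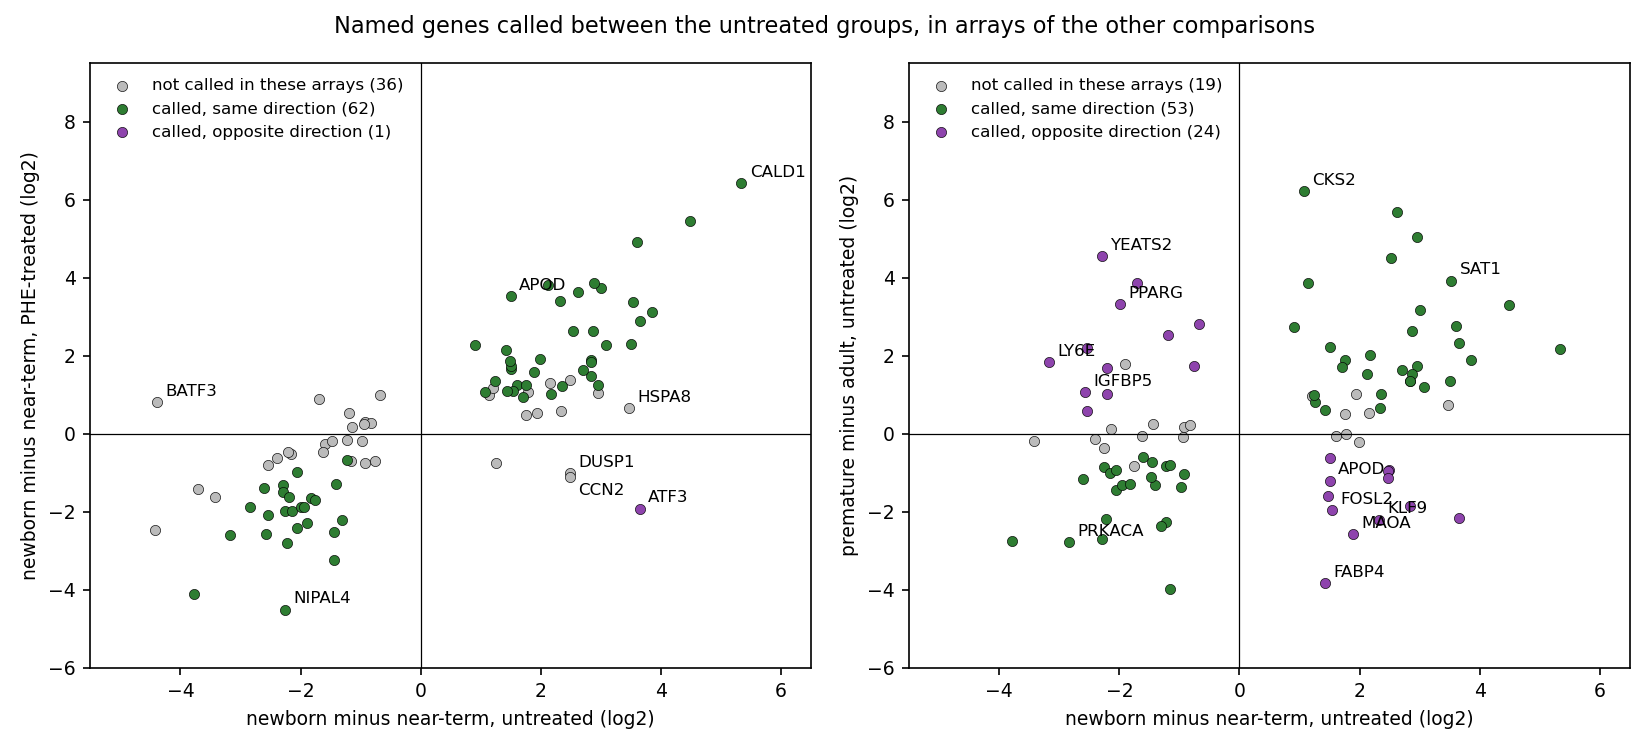
Log2 difference of the 100 named genes called in the untreated comparison (horizontal) against their difference in PHE-treated arteries of the same ages (left, vertical) and between the untreated premature fetus and adult sheep (right, vertical), 4 arrays a group. With PHE 62 genes were called in the same direction and ATF3 in the opposite one, and between the premature fetus and the adult 53 were called in the same direction and 24 in the opposite one.

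The plot of the other comparisons shows the named genes close to a rising diagonal with PHE and more scattered between the premature fetus and the adult. The difference between the untreated and the PHE-treated comparison was tested over 16 arrays, and 283 of 10166 genes passed, 66 with a higher and 217 with a lower difference with PHE. These 283 genes included 9 of 106 named genes. The test is given without a block for animals that treated and untreated arrays may share. All 4 PHE-treated near-term arrays lay on 1 slide, with 1 of the untreated near-term arrays. DUSP1 and CCN2, higher in the newborn without treatment, differed with PHE by -1.01 (adjusted p = 0.193) and -1.10 (0.0521), a change of -3.50 (0.0395) and -3.57 (0.0244). APOD moved further apart, reading 1.92, 1.73, 1.87 and 2.04 in the PHE-treated newborn and -1.22, -2.51, -1.61 and -1.17 near term, a change of 2.02 (0.0161). The counts of 8 of the lists under PHE follow. These lists were picked after their counts were seen, and the counts were not tested against those without treatment or against the 2005 higher and 2320 lower of all genes. Immediate early genes had 2 members higher and 16 lower of 24 tested with PHE, matrix genes 1 higher and 10 lower of 22, and cytokines and chemokines 11 higher and 2 lower of 21. Growth genes had 2 higher and 10 lower of 23, and glucocorticoid genes 5 higher and 0 lower of 13. Leukocyte markers had 5 higher and 0 lower of 14, heat shock genes 5 higher and 4 lower of 22, and nerve and brain markers 1 higher and 0 lower of 4.

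The untreated premature fetus and adult sheep share no array with the comparison at birth and were split over the same scan days, the premature fetus with the newborn and the adult with the near-term fetus. The untreated adult arrays lay on 2 slides that also held untreated near-term arrays. Between the premature fetus and the adult 6052 of 9935 genes were called (60.9%), 3288 higher in the premature fetus and 2764 lower. Of 9133 genes tested in both comparisons, 3417 were called at birth and 5518 between premature and adult. Called in the same direction were 1762, which is 51.6% of the first and 31.9% of the second, and in the opposite direction 473. Of the 2151 genes called at birth both untreated and with PHE, 820 were not called in the same direction between premature and adult, 378 of them higher and 442 lower in the newborn, and 208 were called in the opposite direction. Among the named genes 14 went the same way at birth in both treatments and the opposite way between the premature fetus and the adult, among them KLF9, APOD and NUDT4, higher in the newborn, and IGFBP5, LY6E, PPARG, CYBA and TNNI1, lower. KLF9 differed by 2.32 untreated, 3.40 with PHE and -2.20 between premature and adult (adjusted p = 0.00763, 0.00167 and 0.000186), and IGFBP5 by -2.57, -2.58 and 1.07 (0.000484, 0.000362 and 0.0265). SAT1 and ATP5IF1 were higher and PRKACA, CFL1 and TGFB1 lower in all 3 comparisons, so that for them the difference at birth ran the same way as the scan days in each.

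These results rest on 4 arrays a group from whole arterial wall. Scan day and slide changed together with age, the near-term arrays varied more than the newborn ones and included a dim array, and with the slide as a random block 959 genes were called in place of 3513. The direction of dim genes depended on the background correction. Most probes carry no gene name, and most names that exist are of genes the study lists as altered by PHE. Protein, contraction and cell composition were not measured on these arrays, and the ages given by labels and methods differ.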

How the data were processed

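RNA of MCA segments was hybridized to 1-colour Agilent sheep arrays, and 8 of the 32 were compared. The authors deposited intensity values, in arbitrary scanner units, that the file headers ascribe to Feature Extraction 9.5.3.1 of Agilent. Background is subtracted within each array, and nothing is scaled between arrays. The deposited value table equals them on all 32 arrays.

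Control spots were dropped, outlier spots were treated as missing (2 to 53 per array here), and 50 probes spotted more than once were averaged. Scaling to the 75th percentile of each array follows the study's methods. limma 3.58.1 (lmFit, eBayes) in R 4.3.3 was run on the 8 arrays of each comparison, with Python 3.11.15, numpy 2.4.6, pandas 2.3.3 and matplotlib 3.10.9 for the rest. The fit was tested on simulated data. Only the 8 arrays compared were fitted because near-term arrays vary more than others.

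Symbols came from a RefSeq list for 521 probes and from the array files for 766. For 1654 they came from matching group means in the study's supplementary gene list to the arrays. The other 12067 probes have none, among them 113 whose file name could not be resolved to a symbol and was not used. Single probes matched 1102 of 1106 near-term, 1014 of 1016 newborn, 437 of 438 adult and 528 of 550 premature genes, and a shifted list gave 0, 0, 0 and 22 matches. Matched names were the same as reference names for 52 of 56 probes and as file names for 79 of 89.

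Named are genes with a symbol called in the same direction with and without near-term replicate 4: the 15 largest rises and falls among those well above background on all 8 arrays, the 5 largest bounds and the 3 smallest adjusted p each way, up to 3 called members of each list each way, and all adrenergic, red cell and smooth muscle contractile members. A few genes that meet this rule are counted but not reported here. The comparison, members and lists were chosen with earlier results of these data known. The 24 lists cover contractile, vasoactive, adrenergic, matrix, glucocorticoid, immediate early, heat shock, sterol, oxygen, mitochondrial, antioxidant, growth, angiogenesis, cell cycle, cytokine, interferon and antigen presentation genes and markers of endothelium, leukocytes, red cells, fat, nerve, fibroblasts and leptomeninges.

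Other settings tried were the methods' t-test, p without adjustment, calls at any fold, normexp (offset 50), quantile and median scaling, the 75th percentile over probes well above background on all 8 arrays, other filters, the mean of a gene's probes, all 32 arrays, array weights, replicate or slide as a block, a floor of 0.01, the deposited table, and each array left out in turn. Added after seeing the data were leaving out near-term replicates 2 and 4 together, symbols not from the study's list, and the slide block for the lists. Real-time PCR, prazosin and contraction experiments were not analysed here.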

Additional observations from a re-analysis of the deposited data

Results flagged for a closer look

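Dixon's test at the 5% level was applied to 245 groups of 4 values (named genes, list means and array measures), a level at which chance alone picks out about 1 in 20 groups. It picked 12 values far from the other 3, all of named genes. All 4 of those in the near-term group were the dim replicate 4, which read -1.19 for DUSP1, -0.39 for RPS4X, 4.33 for BGN and -5.04 for CRELD2. In the newborn group they were replicate 2 for GJA1 (1.37), TSC22D4 (-0.96) and GUCY1B1 (0.0), replicate 3 for LY6E (-2.92) and IFI35 (1.59), replicate 1 for NIPAL4 (-1.18) and TIMP1 (4.24), and replicate 4 for SP110 (-0.66). Each of these genes kept its call when the array in question was left out.

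For 9 of 106 named genes the newborn minus near-term difference with PHE departed from the untreated one by limma's test over 16 arrays. For 8 of them the change in log2 was -5.57 for ATF3 (adjusted p = 0.00829), -3.57 for CCN2 (0.0244), -3.50 for DUSP1 (0.0395), -1.71 for SNX9 (0.0477), 1.30 for GLUL (0.0343), 1.64 for JMJD6 (0.0401), 2.02 for APOD (0.0161) and 5.20 for BATF3 (0.0179). BATF3, not well above background on any untreated newborn array, read -3.15, -3.15, -2.34 and -2.77 in the PHE-treated newborn and -4.40, -3.56, -5.75 and -0.94 near term. The values for BATF3 and SNX9 rest on untreated signals that were not well above background in 1 group, so that their size is not measured. What lies behind these values was not tested.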

How the results depend on the processing

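The number of genes called between untreated newborn and near-term arteries was 3513, and lay between 2735 and 4846 under most alternatives. It was 1718 by the methods' t-test after Benjamini-Hochberg adjustment (3341 at their unadjusted threshold), 2102 with scaling to the median, 959 with the slide as a random block, and 5195 when near-term replicates 2 and 4, the arrays of lowest weight (0.309 and 0.141), were left out together, an alternative chosen after seeing the data. Leaving out 1 array at a time gave 2342 (newborn replicate 3) to 4189 (near-term replicate 4). With PHE the count of 4325 ranged from 3195 to 5024, and between premature and adult the count of 6052 ranged from 5633 to 6259. The replicate block gave 2785 calls untreated and 3796 with PHE. Deviations of same-numbered newborn and near-term arrays correlated at -0.012, 0.034, -0.149 and 0.047, so that the numbers do not pair the arrays, and not every array correlated best with its own number.

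List members called numbered 89, 74 with the replicate block and 25 with the slide as a random block, and 72 to 102 otherwise. Of 108 named genes 100 were called, 64 under normexp, 55 with the slide as a random block, and 84 to 100 with 1 array left out. Under normexp the difference turned to -0.06 for C13ORF15, -0.28 for ZMYND11, -0.29 for OSTM1, -0.59 for SNX9, 0.00 for SKP2, -0.07 for MCM2, -0.03 for PTX3, 0.00 for CXCL16, -0.18 for PARP9, -0.65 for GBP2 and -0.29 for INSIG1, and the cause was not tested. All are dim near term. With symbols not from the study's list 145 in place of 677 named genes were called, because fewer carry such a name. The causes of the other changes were not tested.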
